A study of Mus musculus with 16 samples.

Results

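Fibroadipogenic progenitors are mesenchymal cells that lie between the fibres of skeletal muscle, and the 10 genes described here (Pdgfra, Pdgfrb, Ly6a, Cd34, Thy1, Dcn, Lum, Dpp4, Pi16 and Fap) are commonly used to mark them or their subsets. Every array probe whose listed gene symbol equals one of these names was taken, whatever its signal, which gave 11 probes among the 25697 of the array, and 10 of the 18117 genes those probes name. Dcn had 2 probes and the other 9 genes had 1 probe each. Expression was measured in whole hamstring muscle of female mice on Illumina BeadChips, with 1 array per sample and 4 arrays in each of 4 groups. The groups crossed spinal cord injury (SCI) in the lower thoracic spine or sham surgery with cardiotoxin (CDTX, a venom peptide that lyses muscle fibres) or saline injected into the muscle, and muscle was taken 2 days after surgery. SCI+CDTX is, per the series text, the one condition in which neurogenic heterotopic ossification (bone formed inside muscle after injury of the nervous system) develops, and the series asked which genes promote it. No strain, transgene or age is given in the labels, and the labels do not state that each array is a separate mouse, so p-values measure the spread between these samples. SCI+CDTX replicate 2 is marked in its label as excluded from the submitters' final analysis and was left out here too, which left 15 arrays. The samples are of whole muscle, so fewer cells of a type and less RNA per cell cannot be told apart.

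Fibroadipogenic progenitors carry the tyrosine kinase receptor for platelet-derived growth factor alpha, divide after muscle damage, feed the repair of fibres through secreted factors and matrix, and are afterwards cleared. Cells of this class can form fat, scar or, after certain injuries, cartilage and bone. None of the 10 genes is private to them. Pdgfrb also marks the pericytes and smooth muscle cells around vessels, Cd34 and Ly6a are made by endothelial cells, Thy1 and Ly6a by T lymphocytes, Ly6a transcription responds to interferon, and Dcn and Lum are made by fibroblasts and tendon cells at large. Dpp4 and Pi16 are used to mark a fibroblast population that lies in connective tissue sheaths and around vessels.

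All 11 probes were detected on 16 of 16 arrays at a detection p under 0.05, and all passed the filter for the tests. The largest detection p was 0.0125 for Dpp4 on SCI+Saline 3, and each value rests on 22 to 62 beads. In the array annotation, whose genome build is not named, Pdgfra lies on chromosome 5 (5qC3.3), Ly6a on chromosome 15 (15qD3), Cd34 on chromosome 1 (1qH6), Thy1 on chromosome 9 (9qA5.1), Pi16 on chromosome 17 (17qA3.3), Dpp4 and Fap on chromosome 2 in the band 2qC1.3, and Dcn and Lum on chromosome 10 in the band 10qC3. The probes of the proteoglycan genes are shown because the Dcn probes read the same transcript at different places and did not move alike. They are written 5′ to 3′ as the array annotation lists them, and the capitals mark the stop codon of Dcn, at position 34 of its probe with 14 bases after it.
Dcn ILMN_2596346: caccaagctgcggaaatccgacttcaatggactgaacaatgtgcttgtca
Dcn ILMN_2747959: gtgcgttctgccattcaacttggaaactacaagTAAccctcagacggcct
Lum ILMN_3001540: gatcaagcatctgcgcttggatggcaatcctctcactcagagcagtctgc
The Dcn probes start 559 bases apart, and the longest run shared by any pair of these sequences was 6 bases, between Lum and the downstream Dcn probe.

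Levels are log2 normalised intensities, and a call means an adjusted p (limma, Benjamini-Hochberg) under 0.05 over all 14763 kept probes. The SCI arrays lay on 1 slide and the sham arrays on the other, so that surgery and slide cannot be told apart where an SCI group is set against a sham group. The effect of CDTX was measured within a slide. Mean raw intensity per array was 230 to 277 in Sham+Saline and 320 to 373 elsewhere. A score of how unequally paired probes of the same gene read (the leading principal component of the differences between the 2 brightest probes of 2782 genes, with 33.1% of their variance) was 0.35 to 0.39 on the Sham+CDTX arrays and 0.28 on SCI+CDTX 2. On the other 11 arrays it lay between -0.27 and -0.07. The markers' results against Sham+CDTX are also given with this score as a covariate over all 16 arrays (the gene lists were not refitted with it), a fit in which SCI+CDTX is the group whose arrays differ widely in the score, through SCI+CDTX 2.

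In SCI mice the markers were higher with CDTX than with saline. In that comparison 8 of the 11 probes rose and 0 fell, where 42.9% of all kept probes were called, 20.4% as higher and 22.5% as lower. The median log2 fold change was 0.97 over the 11 probes and -0.05 over all kept probes. The groups did not overlap for 8 of the 11 probes and for 45.9% of all kept probes. Pdgfra, Pdgfrb, Ly6a, Cd34, Thy1, Lum, Pi16 and Fap rose, and Dpp4 and the Dcn probes did not pass. In sham mice CDTX gave a split picture: 7 probes rose (Pdgfra, Ly6a, Thy1, Lum, Dpp4 and the Dcn pair), Pi16 fell, and Pdgfrb, Cd34 and Fap did not pass, where 48.9% of all kept probes were called, 23.1% as higher and 25.8% as lower. The median was 0.54 against -0.04 over all kept probes, and the groups did not overlap for 5 of 11 probes against 45% of all. With the probe difference score as a covariate, 9 of 11 probes were called for CDTX in SCI mice, where 40.9% of all kept probes were called in that fit. Of these, 8 were higher and 1, the downstream Dcn probe, was lower. For CDTX in sham mice 0 of 11 were called, against 20.7% of all kept probes.

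**Figure D1:**
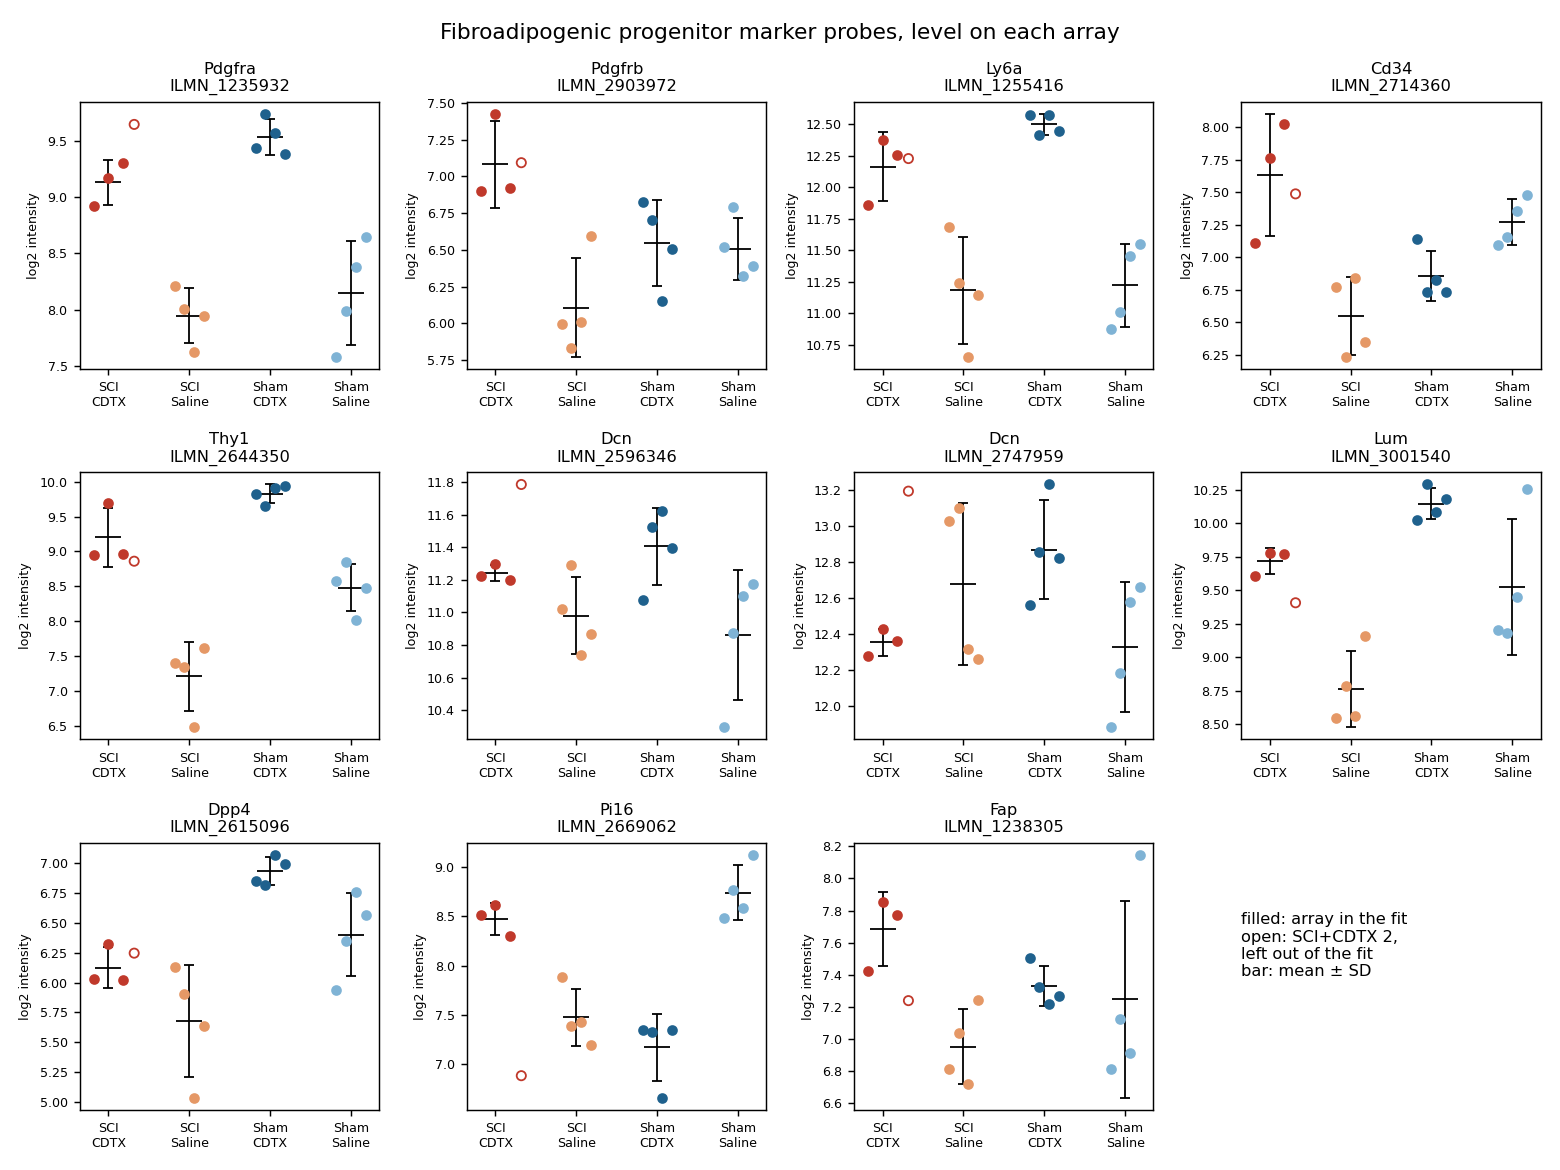
Log2 intensity of each of the 11 marker probes (vertical axes) on each array, by group, with the mean and SD of the fitted arrays as bars and SCI+CDTX 2, normalised with all 16 arrays, as an open circle. Pdgfra, Ly6a and Thy1 are high in both CDTX groups, while Pi16 is high in SCI+CDTX and Sham+Saline and low in the other groups, where the open circle also lies.

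Pdgfra encodes the receptor by which these cells are most often sorted. Its levels were 8.92, 9.17 and 9.30 in SCI+CDTX and 8.21, 8.0, 7.62 and 7.95 in SCI+Saline. They were 9.43, 9.74, 9.57 and 9.38 in Sham+CDTX and 7.58, 7.99, 8.37 and 8.64 in Sham+Saline. Each CDTX array lay above each saline array. The rise with CDTX was 2.27-fold in SCI mice (log2 1.18, SE 0.21, adjusted p = 0.000192) and 2.61-fold in sham mice (log2 1.38, SE 0.19, adjusted p = 1.03e-05). The difference between these effects was -0.20 with a 95% interval of -0.80 to 0.40 (adjusted p = 0.665), so a difference of that size either way was not detectable. SCI+CDTX and Sham+CDTX did not overlap, but their difference of -0.40 did not pass (adjusted p = 0.169). With the score as a covariate the sham effect was 0.35 (adjusted p = 0.63) and the SCI effect 1.01 (adjusted p = 0.00092).

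Pdgfrb (chromosome 18, 18qE1), the sister receptor that pericytes carry most strongly, followed another course. It measured 6.90, 7.42 and 6.92 in SCI+CDTX, and 5.99, 5.83, 6.01 and 6.59 in SCI+Saline. In sham mice it measured 6.83, 6.70, 6.15 and 6.5 with CDTX and 6.52, 6.79, 6.32 and 6.39 with saline. The SCI+CDTX arrays were above all others, and the Sham+Saline range lay inside that of Sham+CDTX. CDTX raised it 1.96-fold in SCI mice (log2 0.97, SE 0.20, adjusted p = 0.000824), while the effect in sham mice was 0.04 with a 95% interval of -0.36 to 0.44 (adjusted p = 0.883), and 0.26 (adjusted p = 0.75) with the score as a covariate. The effect in SCI mice exceeded that in sham mice by 0.93 (SE 0.28, adjusted p = 0.0196), and by 0.77 (adjusted p = 0.49) with the score. That difference was 0.76 (adjusted p = 0.0719) without SCI+CDTX 3, the highest array, and 0.50 (adjusted p = 0.2) after median scaling in place of quantile normalisation.

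Of 9 measured of 10 mural cell genes, 1 rose and 7 fell with CDTX in sham mice (median -0.62), where Pdgfrb was at 0.04. The share of all kept probes called there was 48.9%. In SCI mice 3 of the 9 rose and 3 fell, where 42.9% of all kept probes were called. The called mural genes in SCI mice included Acta2, the actin of smooth muscle, at 0.78 (adjusted p = 0.0025) and Abcc9, a channel subunit of pericytes, at -1.29 (adjusted p = 2.4e-05). The summed intensity of the list was 2695 to 4486 in SCI+CDTX, 2081 to 2730 in SCI+Saline, 2643 to 3219 in Sham+CDTX and 3979 to 4453 in Sham+Saline. Pdgfrb was highest in SCI+CDTX, whereas the mural sum was high in all of Sham+Saline and reached that level in SCI+CDTX on its top array. The part of these cells in the Pdgfrb result was not tested.

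Of the 4 platelet-derived growth factor ligands, Pdgfa, which binds the alpha receptor, fell with CDTX in SCI mice by 0.87 on the log2 scale (SE 0.21, adjusted p = 0.0029), and its effect in sham mice was -0.25 (adjusted p = 0.31). Pdgfb, which binds both receptors and is made chiefly by endothelial cells, was lower in SCI+Saline than in Sham+Saline by a log2 difference of -0.86 (adjusted p = 0.0034), where surgery and slide cannot be told apart. Its CDTX effect was 0.55 in SCI mice and -0.48 in sham mice, neither of which passed, and the difference between them was 1.03 (SE 0.30, adjusted p = 0.017). Pdgfc was detected on 8 of 15 arrays and on 0 of 4 in Sham+Saline, and it was at least 1.08-fold higher in Sham+CDTX than there (adjusted p = 0.0027). The probe of Pdgfd was detected on 0 of 15 arrays, so its level is not given.

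Ly6a (Sca-1), a GPI-anchored surface protein used in mice to sort these progenitors, measured 11.86, 12.38 and 12.26 in SCI+CDTX and 11.69, 11.24, 10.65 and 11.14 in SCI+Saline. It measured 12.57, 12.42, 12.57 and 12.44 in Sham+CDTX and 10.87, 11.01, 11.45 and 11.55 in Sham+Saline. All CDTX arrays were again above all saline arrays. CDTX raised it 1.98-fold in SCI mice (log2 0.98, SE 0.21, adjusted p = 0.00112) and 2.43-fold in sham mice (log2 1.28, SE 0.20, adjusted p = 3.01e-05). Median scaling lowered the SCI value to 0.39 (adjusted p = 0.22), and the score as a covariate lowered the sham value to 0.71 (adjusted p = 0.32). The gap between the effects was -0.30 (95% interval -0.91 to 0.31, adjusted p = 0.513).

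Genes of the interferon response moved beside Ly6a. Of 13 measured of 15, 8 rose and 1 fell with CDTX in SCI mice, and 12 rose and 1 fell in sham mice. The shares of all kept probes called were 42.9% and 48.9% in turn. Oasl2, an interferon-induced antiviral gene, rose by 2.01 (adjusted p = 4.3e-05) and 2.39 (adjusted p = 1.4e-06) in turn. Their summed intensity was 1744 to 3261 in SCI+CDTX, 879 to 1823 in SCI+Saline, 4300 to 5388 in Sham+CDTX and 1201 to 1985 in Sham+Saline, and the probes of Ifit1 and Ifi44 were detected on 0 of 15 arrays. The neighbouring Ly6e, a family member that interferon also induces, rose by 1.37 in SCI mice (adjusted p = 0.00014) and by 2.19 in sham mice (adjusted p = 2.1e-07). Of 4 measured genes of the Ly6 cluster, Ly6a included, 3 rose in each. The part of the interferon response in the Ly6a result was not tested.

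Cd34, a sialomucin of progenitors and of endothelium, rose with CDTX after SCI and did not pass after sham surgery. Its levels were 7.11, 7.76 and 8.02 in SCI+CDTX and 6.77, 6.24, 6.84 and 6.35 in SCI+Saline, without overlap. They were 7.14, 6.73, 6.82 and 6.73 in Sham+CDTX and 7.09, 7.16, 7.36 and 7.48 in Sham+Saline, where 1 array of the former lay above 1 array of the latter. The SCI effect was 2.12-fold (log2 1.08, SE 0.20, adjusted p = 0.000341). The sham effect was -0.42 (SE 0.19, adjusted p = 0.0783) and turned to 0.30 (adjusted p = 0.24) after median scaling. It passed as lower without SCI+CDTX 1 (-0.42, adjusted p = 0.0432) or Sham+CDTX 1 (-0.51, adjusted p = 0.0489), and was 0.03 with the score as a covariate. The difference between the effects was 1.5 (SE 0.28, adjusted p = 0.000769) and stayed past the threshold without each array in turn, at 1.31 to 1.76, but with the score as a covariate it was 1.13 (adjusted p = 0.29). Among saline-treated mice Cd34 was 1.65-fold lower after SCI than after sham surgery (log2 -0.72, adjusted p = 0.0074), and with CDTX it was 1.71-fold higher (log2 0.78, adjusted p = 0.00747). Without SCI+CDTX 4 the last value was 0.58 (adjusted p = 0.0677), with the score as a covariate 0.45 (adjusted p = 0.61), and after median scaling the saline value was -0.38 (adjusted p = 0.17).

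Endothelial genes are given beside Cd34. Of 11 measured of 12, 5 rose and 0 fell with CDTX in SCI mice, 0 rose and 8 fell in sham mice, and the effects differed upwards for 8 (median difference 1.12). The shares of all kept probes called were 42.9%, 48.9% and 23.6% in turn. Vwf, the von Willebrand factor of endothelium, rose by 1.22 in SCI mice (adjusted p = 0.00022) and fell by 1.21 in sham mice (adjusted p = 7.1e-05). The summed intensity of the list was 4293 to 5224 in SCI+CDTX and 4906 to 5728 in Sham+Saline, against 2796 to 3537 in SCI+Saline and 2639 to 2920 in Sham+CDTX. Against Sham+Saline, 0 of the list were higher and 5 lower in SCI+CDTX (median -0.33), where Cd34 was at 0.36. In this comparison 46.5% of all kept probes were called, and surgery and slide cannot be told apart. No endothelial gene of the list was undetected on all arrays. The part of endothelial cells in the Cd34 result was not tested.

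Thy1 (CD90), another GPI-anchored protein of mesenchymal cells, T lymphocytes and neurons, showed the widest rise of the 11 probes with CDTX in SCI mice. It measured 8.95, 9.69 and 8.96 in SCI+CDTX and 7.39, 7.34, 6.48 and 7.61 in SCI+Saline. In sham mice it measured 9.82, 9.65, 9.91 and 9.94 with CDTX and 8.58, 8.84, 8.02 and 8.48 with saline. The groups ranked Sham+CDTX, SCI+CDTX, Sham+Saline and SCI+Saline by their means, and SCI+CDTX 3 was the array that overlapped Sham+CDTX. The rise was 3.98-fold in SCI mice (log2 1.99, SE 0.25, adjusted p = 6.38e-06) and 2.54-fold in sham mice (log2 1.35, SE 0.23, adjusted p = 7.78e-05). With the score as a covariate the sham value was 1.51 (adjusted p = 0.074). The difference between the effects, 0.65, did not pass (95% interval -0.06 to 1.35, adjusted p = 0.181). SCI+Saline was 2.42-fold below Sham+Saline (log2 -1.28, adjusted p = 0.000345), a call kept under each of 26 alternatives. SCI+CDTX against Sham+CDTX was -0.63 (adjusted p = 0.0626), and -0.88 (adjusted p = 0.0221) without SCI+CDTX 3.

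The T lymphocyte genes were dim. Of 7 measured of 10, 6 rose with CDTX in SCI mice and 0 moved in sham mice, and Thy1 rose in both. The shares of all kept probes called were 42.9% and 48.9% in turn. Cd3e, Cd3d, Cd3g and Cd2 were each detected on 3 of 3 SCI+CDTX arrays and on 1 of the other arrays. They passed the filter of 3 arrays only through the group where they are high, so these list counts are not a test. Cd3d, a chain of the T cell receptor complex, was detected on 3 of 3 SCI+CDTX arrays and on 0 of 4 in SCI+Saline. Its level was at least 1.77-fold higher in the former, a description given without a p-value because of that filter. The summed intensity of the list was 241 to 307 in SCI+CDTX and never above 183 elsewhere, with 141 as the lowest, and Cd8a was detected on 0 of 15 arrays. The part of T lymphocytes in the Thy1 and Ly6a results was not tested.

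Pi16, a secreted peptidase inhibitor, was the marker whose CDTX effect differed most between surgeries. Its levels were 8.51, 8.61 and 8.30 in SCI+CDTX and 7.89, 7.39, 7.43 and 7.20 in SCI+Saline. They were 7.35, 7.33, 6.66 and 7.35 in Sham+CDTX and 8.48, 8.77, 8.58 and 9.12 in Sham+Saline. In SCI mice the CDTX arrays lay above all saline arrays, and in sham mice below all of them. CDTX raised Pi16 2.00-fold in SCI mice (log2 1.00, SE 0.20, adjusted p = 0.000635) and lowered it 2.96-fold in sham mice (log2 -1.57, SE 0.19, adjusted p = 1.74e-06). The difference was 2.56 (SE 0.28, adjusted p = 7.95e-06), above 99.9% of all kept probes. In the mice given saline it was 2.40-fold lower after SCI (log2 -1.26, SE 0.19, adjusted p = 5.57e-05), and in those given CDTX it was 2.46-fold higher (log2 1.30, SE 0.20, adjusted p = 9.32e-05), a value of -0.35 (adjusted p = 0.77) with the score as a covariate.

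The excluded array bears on these Pi16 values. SCI+CDTX 2 measured 6.89 when all 16 arrays were normalised together, where the other SCI+CDTX arrays measured 8.34 to 8.64 and Sham+CDTX 6.70 to 7.39. With it included, the SCI effect was 0.59 (adjusted p = 0.14), the sham effect -1.56 (adjusted p = 0.00035) and the difference 2.15 (adjusted p = 0.0052). With the probe difference score added, the SCI effect was 1.14 (adjusted p = 0.0018), the sham effect turned to 0.41 (adjusted p = 0.66), and the difference was 0.74 (adjusted p = 0.58). Pi16 measured 6.70 to 7.39 on the 5 arrays with the highest score. The part of that score in the result was not tested.

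Dpp4, a surface peptidase used beside Pi16, did not share its course. It measured 6.03, 6.32 and 6.02 in SCI+CDTX and 6.13, 5.91, 5.04 and 5.64 in SCI+Saline. It measured 6.85, 6.82, 7.07 and 7.0 in Sham+CDTX and 5.94, 6.35, 6.76 and 6.57 in Sham+Saline. Sham+CDTX was above all other arrays, and the lowest value came from SCI+Saline 3. Dpp4 rose 1.44-fold with CDTX in sham mice (log2 0.53, SE 0.21, adjusted p = 0.0391). Dpp4 lost this call without any 1 of Sham+CDTX 1, 3 or 4 or of Sham+Saline 1 or 2, at 0.38 to 0.56. Dpp4 also lost it with no detection filter and with the replicate number as a block. In SCI mice its effect was 0.45 (95% interval -0.02 to 0.91, adjusted p = 0.114). The difference between the SCI and sham effects was -0.08 (95% interval -0.72 to 0.55, adjusted p = 0.879). SCI groups were lower than sham groups with either injection, by 1.75-fold with CDTX (log2 -0.81, adjusted p = 0.00945) and by 1.65-fold with saline (log2 -0.73, adjusted p = 0.0118), and the saline value was -0.40 (adjusted p = 0.15) after median scaling. With the score as a covariate the sham effect turned to -0.24 (adjusted p = 0.78), and the SCI+CDTX value against Sham+CDTX was -0.31 (adjusted p = 0.77). The probe reads near the lower end of detection, so the offset of the log scale understates its folds. Pdgfrb was nearly as dim, its mean level above 56.6% of all kept probes, against 52.7% for Dpp4.

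Fap, a surface protease of activated fibroblasts, measured 7.42, 7.86 and 7.77 in SCI+CDTX and 6.81, 7.04, 6.72 and 7.24 in SCI+Saline. It measured 7.5, 7.32, 7.22 and 7.27 in Sham+CDTX and 6.81, 7.12, 6.91 and 8.15 in Sham+Saline. Sham+Saline 4 was the highest of all 15 arrays, although the other 3 of its group were below every Sham+CDTX array. Fap rose 1.66-fold with CDTX in SCI mice (log2 0.73, SE 0.24, adjusted p = 0.02). The call was lost with SCI+CDTX 2 included (0.61, adjusted p = 0.052), with no detection filter, and without SCI+CDTX 3 (0.65, adjusted p = 0.0879), SCI+CDTX 4 (0.69, adjusted p = 0.068) or SCI+Saline 3 (0.65, adjusted p = 0.0543). In sham mice its effect was 0.08 (95% interval -0.39 to 0.55, adjusted p = 0.788), and 0.47 (adjusted p = 0.63) with the score as a covariate.

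Dcn (decorin) and Lum (lumican) are small leucine-rich proteoglycans that bind collagen fibrils. The upstream Dcn probe measured 11.22, 11.30 and 11.20 in SCI+CDTX and 11.02, 11.29, 10.74 and 10.87 in SCI+Saline. The downstream probe measured 12.28, 12.43 and 12.36 in SCI+CDTX and 13.03, 13.10, 12.32 and 12.26 in SCI+Saline. SCI+CDTX fell within the spread of SCI+Saline by the downstream probe and near its top by the upstream one. The effect of CDTX in SCI mice was 0.26 upstream (95% interval -0.15 to 0.67, adjusted p = 0.315) and -0.32 downstream (95% interval -0.80 to 0.15, adjusted p = 0.276), and median scaling turned the former to -0.23 and made the latter -0.92 (adjusted p = 0.0084). The downstream probe was also called as lower with the score as a covariate.

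In sham mice the upstream probe measured 11.07, 11.52, 11.62 and 11.40 with CDTX and 10.30, 10.88, 11.10 and 11.17 with saline. The downstream probe measured 12.56, 12.86, 13.23 and 12.82 with CDTX and 11.88, 12.19, 12.58 and 12.66 with saline. The sham groups overlapped for each. Both probes rose 1.46-fold with CDTX (log2 0.54, adjusted p = 0.0193 upstream and 0.0402 downstream). The upstream call was lost without Sham+CDTX 2 or 3 or Sham+Saline 1, at 0.35 to 0.51. The downstream call was lost without Sham+CDTX 2, 3 or 4 or Sham+Saline 1 or 2, at 0.39 to 0.56. It was also lost with all 16 arrays, median scaling, no background correction, no detection filter and the replicate number as a block. The downstream call was kept in 15 of 26 alternatives. With the score as a covariate the sham effects turned to -0.57 (adjusted p = 0.36) and -1.09 (adjusted p = 0.082).

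The gap between the Dcn probes, downstream minus upstream with all 16 arrays normalised together, differed among the groups. It was 1.04, 1.12 and 1.15 in SCI+CDTX (mean 1.11 ± 0.06 SD, n = 3), and 2.00, 1.80, 1.57 and 1.38 in SCI+Saline (mean 1.69 ± 0.27 SD, n = 4). It was 1.33 to 1.60 in Sham+CDTX and 1.30 to 1.58 in Sham+Saline. The 3 SCI+CDTX arrays were below the other 13, SCI+CDTX 2 included at 1.41. In raw intensity the ratio of the probes was 1.95 to 2.07 on these 3 arrays and 2.31 to 4.13 elsewhere. Across the 16 arrays the gap and the probe difference score had a Pearson r of -0.03, a description over arrays that share slides and groups, and within SCI+CDTX the array with the high score had the widest gap. The part of the score in the gap was not tested. The interaction for the downstream probe was -0.87 (SE 0.31, adjusted p = 0.0503), against -0.28 (SE 0.27, adjusted p = 0.495) upstream, and with the score as a covariate the values were 0.52 and 0.64.

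**Figure D2:**
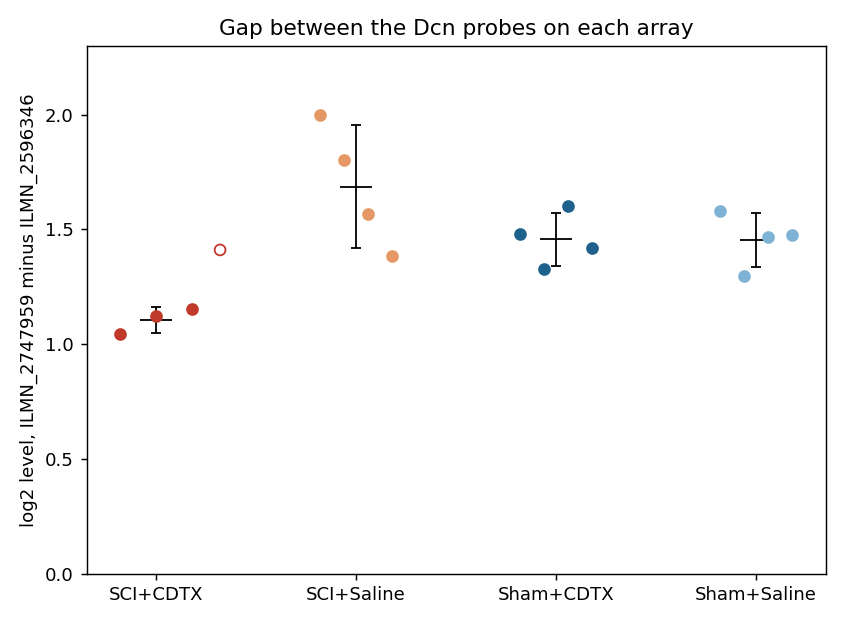
Log2 level of the downstream Dcn probe minus that of the upstream Dcn probe (vertical axis) on each array by group, with the mean and SD of the fitted arrays as bars and SCI+CDTX 2 as an open circle. The 3 fitted SCI+CDTX arrays sit at 1.04 to 1.15, below the other 13 arrays.

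Lum measured 9.61, 9.78 and 9.77 in SCI+CDTX and 8.55, 8.79, 8.56 and 9.16 in SCI+Saline. It measured 10.02, 10.29, 10.09 and 10.18 in Sham+CDTX and 9.21, 9.18, 9.45 and 10.26 in Sham+Saline. SCI+Saline was below all other arrays, and Sham+Saline 4 reached the Sham+CDTX range. CDTX raised Lum 1.94-fold in SCI mice (log2 0.96, SE 0.22, adjusted p = 0.00154), a call kept under each of 26 alternatives, and 1.54-fold in sham mice (log2 0.62, SE 0.20, adjusted p = 0.0149). The sham call was lost without Sham+Saline 1 or 2 (0.51, adjusted p = 0.0562 and 0.0584), and with the score as a covariate (0.78, adjusted p = 0.32). Lum was 1.69-fold lower in SCI+Saline than in Sham+Saline (log2 -0.76, adjusted p = 0.00757), and the value was -0.44 (adjusted p = 0.17) after median scaling.

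Other leucine-rich proteoglycans split in sham mice. Of 8 measured of 10, 2 rose and 1 fell with CDTX in SCI mice, and 3 rose and 4 fell in sham mice. The shares of all kept probes called were 42.9% and 48.9% in turn. Bgn (biglycan), the closest relative of Dcn, rose by 2.40 in SCI mice (adjusted p = 2.4e-06) and by 1.26 in sham mice (adjusted p = 0.00032). Their difference of 1.14 passed (adjusted p = 0.028). Kera (keratocan) fell by 1.26 in sham mice (adjusted p = 0.0003). Tendon cells make Dcn and Lum too: of 4 measured of 7 tenocyte genes, 0 rose and 1 fell with CDTX in SCI mice and 0 rose and 2 fell in sham mice, with Tnmd and Thbs4 detected on 0 of 15 arrays. The tenocyte sum was 702 to 747 in SCI+CDTX, 786 to 1068 in SCI+Saline, 192 to 237 in Sham+CDTX and 184 to 544 in Sham+Saline. By calls, only 1 of these 4 genes, Scx, was higher in SCI+Saline than in Sham+Saline (median of the list -0.15). Scx alone was also called, as higher, in SCI+CDTX against Sham+CDTX (median 0.19). Of all kept probes 29.5% and 29.8% were called in turn, and surgery and slide cannot be told apart there. The tenocyte and proteoglycan lists share genes. The part of tendon cells in the Dcn and Lum results was not tested.

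Surgery was compared within each injection, with slide and surgery not told apart. Among mice given CDTX, Cd34 and Pi16 were higher and Dpp4 lower after SCI than after sham surgery, 3 of 11 probes, where 29.8% of all kept probes were called, 14.9% in each direction. The groups did not overlap for 7 of 11 probes and for 42.6% of all. Among mice given saline, Cd34, Thy1, Lum, Dpp4 and Pi16 were lower after SCI and 0 probes were higher, where 29.5% of all kept probes were called, 14.8% as higher and 14.6% as lower. Here 4 of 11 probes and 23.5% of all did not overlap. The count among CDTX mice was 5 without SCI+Saline 4, 2 without SCI+CDTX 4, and 0 with the score as a covariate (1.75% of all kept probes). The count among saline mice was 2, Thy1 and Pi16, after median scaling (33.6% of all kept probes). The diagonal comparisons set both factors against each other. SCI+CDTX exceeded Sham+Saline for Pdgfra (0.98), Ly6a (0.94), Thy1 (0.72) and Pdgfrb (0.58), 4 of 11 probes where 46.5% of all kept probes were called and 23% were higher. Groups did not overlap for 5 of 11 probes and 48.8% of all. The calls of Thy1 and Pdgfrb were lost without SCI+CDTX 3 or Sham+Saline 3, and with no detection filter. Pdgfrb also lost its call without Sham+Saline 4 (0.54, adjusted p = 0.056), and Thy1 with the score as a covariate. SCI+Saline was below Sham+CDTX for Thy1 (-2.62), Pdgfra (-1.58), Lum (-1.38), Ly6a (-1.32) and Dpp4 (-1.26), 5 of 11 probes where 47.8% were called and 23.2% were lower, and for these 5, against 44.1% of all, the groups did not overlap. With the score as a covariate Thy1 (-2.77, adjusted p = 0.0018) and Lum (-1.52, adjusted p = 0.025) kept their calls, and Pdgfra (-0.64), Ly6a (-0.80) and Dpp4 (-0.56) lost them. The downstream Dcn probe (1.30, adjusted p = 0.024) and Pi16 (-1.49, adjusted p = 0.037) changed sign and passed in that fit.

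The CDTX effect differed between SCI and sham mice for 3 of 11 probes (Pdgfrb, Cd34 and Pi16), each upwards in SCI mice, where 23.6% of all kept probes were called, 12% of all upwards and 11.6% downwards. An additive difference between slides cancels in this comparison. With the score as a covariate 0 of 11 passed, and 0.288% of all kept probes. By calls without the score, the markers were those raised by CDTX after either surgery (Pdgfra, Ly6a, Thy1 and Lum), those raised in sham mice without a call in SCI mice (Dpp4 and Dcn by both probes), those raised in SCI mice without a call in sham mice (Pdgfrb, Cd34 and Fap), and Pi16, which moved in opposite directions. For Fap the effects differed by 0.65, which did not pass (adjusted p = 0.171). The difference, SCI minus sham, did not pass for Dpp4 either, at -0.08 (adjusted p = 0.879). For Dcn it was -0.28 upstream (adjusted p = 0.495) and -0.87 downstream (adjusted p = 0.0503). For Fap, Dpp4 and Dcn this sorting by calls therefore does not show that the CDTX effect differed between surgeries. After median scaling Pdgfrb and Fap were called in sham mice too, at 0.78 (adjusted p = 0.0023) and 0.76 (adjusted p = 0.019), a setting in which the median of all kept probes there was 0.24 against -0.04.

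**Figure D3:**
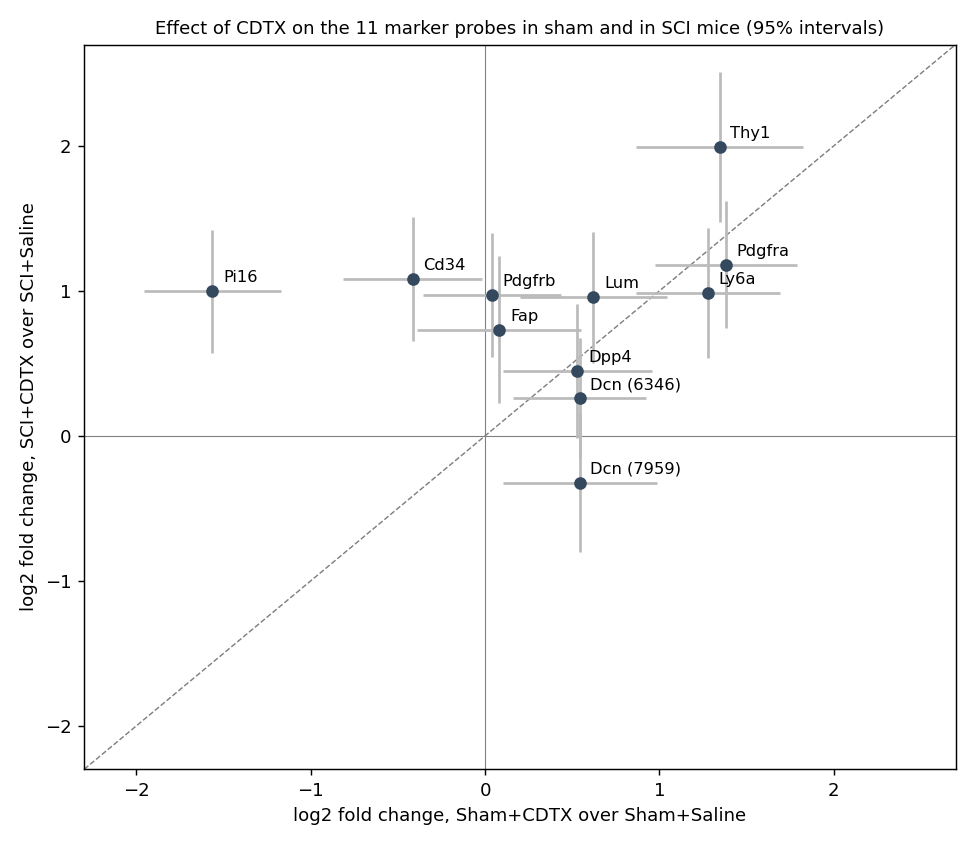
Log2 fold change with CDTX in SCI mice (vertical axis) against that in sham mice (horizontal axis) for the 11 probes, with 95% intervals as lines and equal effects as the dashed diagonal. Pi16, Cd34 and Pdgfrb lie farthest above the diagonal, and Pi16 lies at -1.57 in sham mice and 1.00 in SCI mice.

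A list of 25 further genes of fibroblasts and their progenitors gave 21 measured genes. With CDTX, 13 rose and 0 fell in SCI mice (median 0.70), and 12 rose and 3 fell in sham mice (median 0.64). The shares of all kept probes called were 42.9% and 48.9% in turn. Cd248 (endosialin), a surface protein of mesenchymal cells, rose by 2.38 in SCI mice (adjusted p = 4.7e-07), and its effect exceeded that in sham mice by 1.71 (adjusted p = 0.0003). Lox, the enzyme that crosslinks collagen, rose by 2.7 in sham mice (adjusted p = 3.1e-07), and Gsn (gelsolin), which is high in quiescent fibroblasts, fell there by 0.88 (adjusted p = 0.0049). In SCI+Saline against Sham+Saline 1 rose and 10 fell, with Cd248 at -1.43 (adjusted p = 2e-05) and Fbn1 (fibrillin 1) at -1.40 (adjusted p = 8.5e-05). In SCI+CDTX against Sham+CDTX 0 rose and 7 fell, led by Mfap4 at -1.63 (adjusted p = 9.9e-05). The shares of all kept probes called were 29.5% and 29.8% in turn. Surgery and slide cannot be told apart in these 2 comparisons, and the list was not refitted with median scaling. The summed intensity of the list was 14100 to 19698 in SCI+CDTX, 5193 to 7770 in SCI+Saline, 16308 to 19151 in Sham+CDTX and 8454 to 13971 in Sham+Saline.

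Of 15 measured signals and receptors through which these cells act or are acted on, 7 rose and 1 fell with CDTX in SCI mice, and 6 rose and 1 fell in sham mice. The shares of all kept probes called were 42.9% and 48.9% in turn. Il33, the alarmin that these cells make for regulatory T cells, rose by 1.48 in sham mice (adjusted p = 9.6e-06), and Il13ra1, a receptor chain for interleukins 4 and 13, rose by 1.32 in SCI mice (adjusted p = 0.00036) and 1.36 in sham mice (adjusted p = 8.4e-05). Bmpr1a, a receptor for bone morphogenetic proteins, fell by 1.41 in SCI mice (adjusted p = 5.7e-06) and by 0.42 in sham mice (adjusted p = 0.035), and the difference of -0.99 passed (adjusted p = 0.0049).

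**Figure D4:**
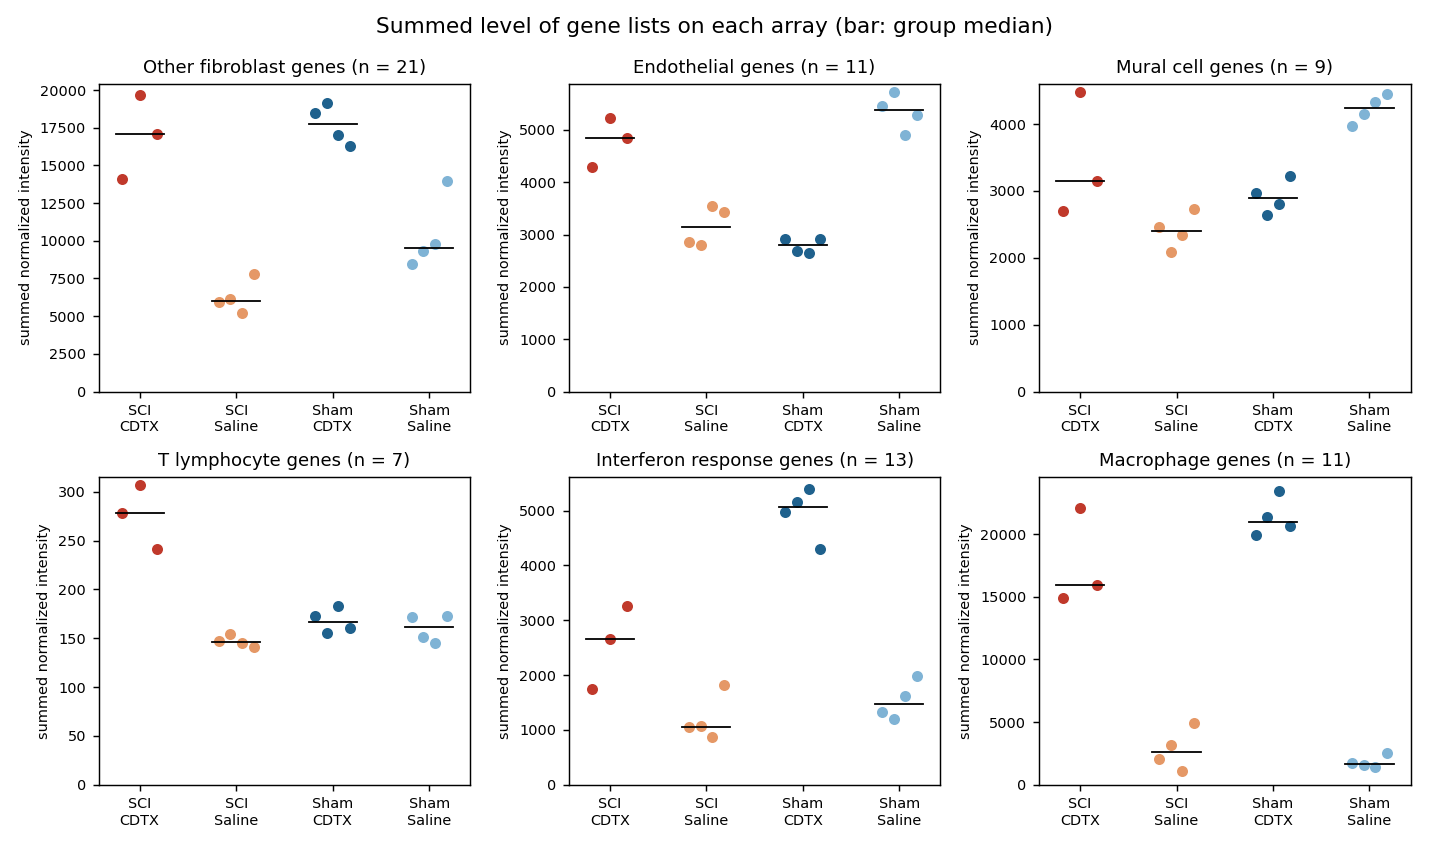
Summed normalised intensity of the measured genes of 6 lists (vertical axes, from 0) on each of the 15 fitted arrays, by group, with the group median as a bar. Fibroblast and macrophage genes are high in both CDTX groups, endothelial genes in SCI+CDTX and Sham+Saline, and T lymphocyte genes in SCI+CDTX.

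Macrophage and dividing-cell genes rose in step with the injection. Of all kept probes, 42.9% were called for CDTX in SCI mice and 48.9% in sham mice. All 11 measured of 12 macrophage genes rose with CDTX after either surgery, and their sum was 14873 to 22065 in SCI+CDTX and 19916 to 23446 in Sham+CDTX against 1117 to 4929 in the saline groups, with Ccr2 detected on 0 of 15 arrays. Of 10 measured of 15 proliferation genes, 9 rose with CDTX in SCI mice and 10 in sham mice, with Cdk1, the kinase of mitotic entry, at 3.66 in sham mice (adjusted p = 4.6e-08). Of 6 measured of 8 adipocyte genes, 1 rose in SCI mice and 4 fell in sham mice, with Fabp4 detected on 0 of 15 arrays. Of 11 measured of 12 muscle fibre genes, 0 rose and 2 fell in SCI mice and 2 rose and 1 fell in sham mice. The part of a changed mix of cells in the marker results was not tested.

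Arrays of 1 group also differed across the marker probes. The values that follow were not computed for other probes, so they do not show a trait particular to the markers. After the group means were taken off, 48 of the 55 pairs of marker probes correlated above 0 over the 15 arrays, with a median of 0.28 and a range of -0.61 to 0.89, a description in which pairs share arrays and normalisation. Ly6a and Dpp4 (0.89), Lum and Fap (0.88), the Dcn pair (0.87) and Pdgfra and Ly6a (0.83) were the closest. Sham+Saline 4 lay above its group mean for 9 of 11 probes, by 0.34 on average and by 0.90 for Fap, and Sham+Saline 1 lay below it for 9 of 11, at -0.31 on average. SCI+CDTX 3 was above its group mean for 11 of 11 probes and SCI+CDTX 1 for 1 of 11. In SCI+Saline, replicate 3 was above for 1 of 11, with Thy1 at -0.73.

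**Figure D5:**
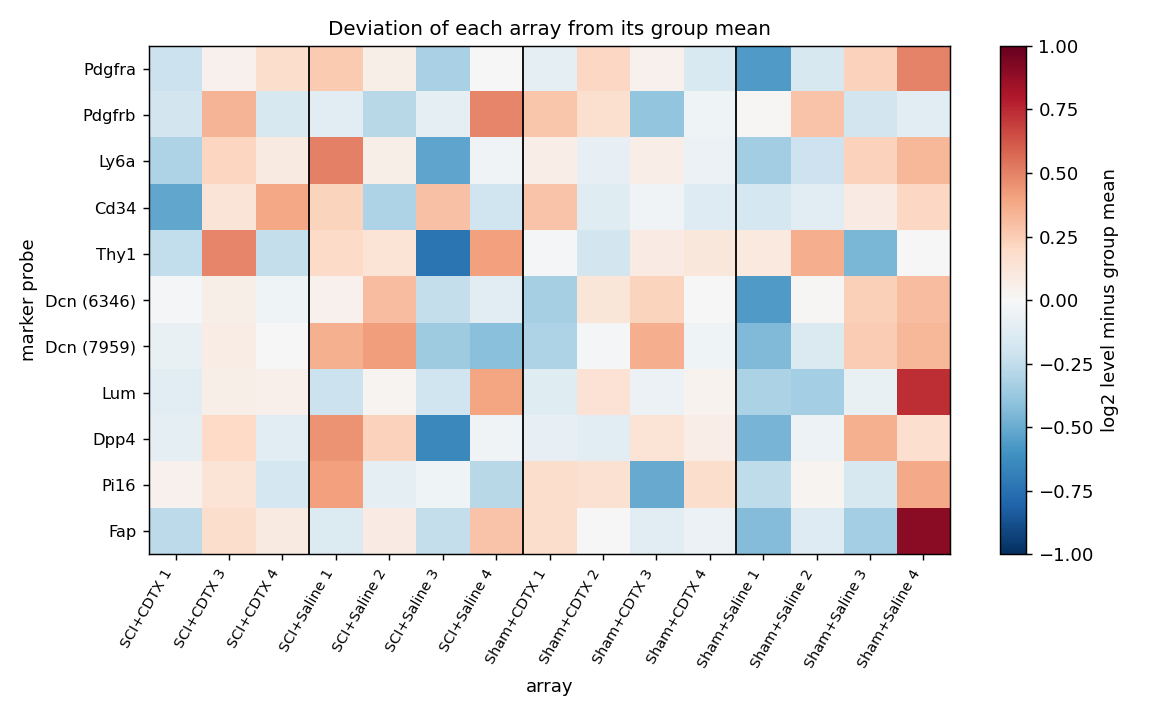
Deviation of each array (horizontal axis) from its group mean for each of the 11 marker probes (vertical axis), in log2 units by colour, with black lines between groups. Sham+Saline 4 is highest for Fap (0.90) and Lum (0.73), and SCI+Saline 3 is lowest for Thy1 (-0.73).

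The genes whose levels over the 15 arrays were most like each marker are given by Pearson r, which here reflects the 4 groups as much as single arrays. For Pdgfra they were Usp1 (0.976), Wipf1 (0.971) and Samd9l (0.971), and for Ly6a they were Pdgfra (0.970), Kntc1 (0.968) and Depdc1b (0.966). Thy1 was most like Prr33 (0.972), Papss1 (0.969) and Myadm (0.968), and Cd34 like Nfatc4 (0.956), Ddah1 (0.894) and Denn2b (0.891). Lum was most like Casp2 (0.962), Sparc (0.956) and Ppic (0.941), and the downstream Dcn probe like Zmynd8 (0.942), Dek (0.930) and Selenos (0.899). Fap was most like Fcrla (0.928), Col1a2 (0.896) and Hdc (0.887). For Dpp4 they were Col4a1 (0.942), Nedd9 (0.940) and Ebf2 (0.931), for Pi16 Rasl12 (0.920), Plekha4 (0.918) and Urm1 (0.917), and for Pdgfrb Fmnl3 (0.914), Sema4a (0.902) and Tmem198b (0.893).

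The authors' deposited table of their final analysis, on background-subtracted intensities with average normalisation, sets SCI+CDTX against each other group. Of the 11 probes, 9 had a p under 0.05 against SCI+Saline in the authors' deposited table, all 9 higher in SCI+CDTX, including Dpp4 at a ratio of 2.38 and Thy1 at 5.44. Pdgfrb had a ratio of 3.26 there, where the limma fit gave 1.96-fold. The deposited means of Pdgfrb in Sham+CDTX and Sham+Saline had a ratio of 1.73, without a p-value, where the limma fit gave log2 0.04. Against Sham+CDTX the authors' deposited table had 3 such probes, with Pi16 higher at a ratio of 2.48 and Dpp4 and the downstream Dcn probe lower. Against Sham+Saline the authors' deposited table had 5, all higher, among them Cd34 at a ratio of 2.02, which did not pass in the limma fit (log2 0.36, adjusted p = 0.161). The share of all probes with such a p in the authors' deposited table was not computed. The counts of 9, 3 and 5 therefore cannot be set against a background. The name of that analysis in the file header ends in fdr, and how those p-values were corrected for multiple tests is not given in the sources used here.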

How the data were processed

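The deposited non-normalised table gives mean bead intensity, a detection p-value and bead numbers per probe and array, exported from GenomeStudio 2011.1 per the file headers and the submitters' processing notes. The authors' deposited final analysis gives group mean intensity after average normalisation and background subtraction, and per comparison a p-value. The 15 arrays were background corrected, quantile normalised and set to log2 by neqc (offset 16; limma 3.58.1, R 4.3.3; files read with the data.table package, version 1.17.8). Tests covered the 14763 probes (10952 genes) whose detection p was below 0.05 on 3 arrays or more. A model of the 4 group means was fitted with lmFit and eBayes. Adjusted p-values are Benjamini-Hochberg values over all kept probes. The steps were tested on simulated data. The members and gene lists were chosen with earlier results of these data known. All 11 member probes are described. Other genes named are the 3 most correlated with each member, the PDGF ligands, and at most 2 called genes per list, direction and comparison, by the brightest kept probe. The number of arrays limits the precision. Alternatives covered the normalisation, background, detection filter, arrays used, variance model and slide. Unused per-sample columns numbered 0.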

Additional observations from a re-analysis of the deposited data

Results flagged for a closer look

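In 4 of 44 sets of 4 arrays (each probe in each group, all 16 arrays normalised together), 1 array stood apart by Dixon's criterion, which chance meets in about 1 set in 20 (5%). Thy1 on SCI+CDTX 3 was the highest of its group at 9.72. Both Dcn probes on SCI+CDTX 2, the array left out of the fits, stood above their group, at 11.78 upstream and 13.20 downstream, where the other 3 arrays measured 12.29 to 12.44 downstream. Pi16 on Sham+CDTX 3 was the lowest of its group at 6.70.

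The effect of CDTX differed between SCI and sham mice, by the test of the difference itself in limma, for Pdgfrb (log2 0.93, adjusted p = 0.0196), Cd34 (1.5, adjusted p = 0.000769) and Pi16 (2.56, adjusted p = 7.95e-06). These are 3 of 11 probes, where 23.6% of all kept probes were called. With the score as a covariate 0 of 11 passed, and 0.288% of all kept probes. The Pdgfrb call was also lost after median scaling and without SCI+CDTX 3 (0.76, adjusted p = 0.0719).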

How the results depend on the processing

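The number of member probes called held within 1.5 times of the reported count except as follows. The share of all tested probes called in the same fit is given in brackets. In SCI+CDTX against Sham+CDTX it was 7 with all 16 arrays and array weights (42.2%), 5 with no background correction (28.4%) and 8 with only the groups compared (39%). The share in the main fit was 29.8%. In SCI+CDTX against Sham+Saline the count was 2 with no detection filter (25.9%) and 7 with each slide normalised separately (46.5%). Under median scaling it was 2 in SCI+Saline against Sham+Saline (33.6%) and 8 in SCI+Saline against Sham+CDTX (50%). With the probe difference score it was 0 for CDTX in sham mice (20.7%), 0 for SCI+CDTX against Sham+CDTX (1.75%) and 0 for the interaction (0.288%).

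Leaving out each array in turn gave counts of 7 to 9 for CDTX in SCI mice, 4 to 9 for CDTX in sham mice (4 without Sham+Saline 1, 5 without Sham+CDTX 3 or Sham+Saline 2), 2 to 5 for SCI+CDTX against Sham+CDTX (5 without SCI+Saline 4), 5 to 6 for SCI+Saline against Sham+Saline, 2 to 5 for SCI+CDTX against Sham+Saline (2 without SCI+CDTX 3 or Sham+Saline 3), 5 to 6 for SCI+Saline against Sham+CDTX and 2 to 4 for the interaction. Uncalled values that changed sign ranged from -0.07 to 0.22 (upstream Dcn), -0.44 to 0.00 (Fap) and -0.21 to 0.13 (Ly6a) in SCI+Saline against Sham+Saline, from -0.06 to 0.38 (Fap) and -0.05 to 0.17 (Pdgfrb) for CDTX in sham mice, from -0.12 to 0.14 (downstream Dcn) in SCI+CDTX against Sham+Saline, and from -0.29 to 0.08 (Dpp4) for the interaction.

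With the probe difference score 18 of 36 calls were kept and these values changed sign. CDTX in sham mice gave Cd34 0.03, Dcn -0.57 and -1.09 (upstream, downstream), Dpp4 -0.24 and Pi16 0.41. SCI+CDTX against Sham+CDTX gave Dcn 0.66 and 0.72, Fap -0.01, Ly6a 0.03, Pdgfra 0.36 and Pi16 -0.35. SCI+CDTX against Sham+Saline gave downstream Dcn -0.37 and Pi16 0.06. SCI+Saline against Sham+CDTX gave Dcn 0.59 and 1.30 and Pi16 -1.49. The interaction gave Dcn 0.64 and 0.52, Dpp4 0.49, Ly6a 0.12 and Pdgfra 0.65. Under median scaling 30 of 36 calls were kept, and the sign changed for upstream Dcn with CDTX in SCI mice (-0.23), Cd34 with CDTX in sham mice (0.30), Fap (0.06), Ly6a (0.35) and Pdgfra (0.20) in SCI+Saline against Sham+Saline, downstream Dcn (-0.31), Dpp4 (0.38) and Pi16 (0.14) in SCI+CDTX against Sham+Saline, downstream Dcn in SCI+Saline against Sham+CDTX (0.25) and Lum in the interaction (-0.01). Array weights turned Pdgfrb with CDTX in sham mice to -0.01, and separate slides turned upstream Dcn in SCI+CDTX against Sham+CDTX to 0.12 and Ly6a in SCI+Saline against Sham+Saline to 0.24. The cause was not tested.

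With the replicate number as a block, 34 of 36 calls were kept, with counts of 8, 6, 3, 5, 4, 5 and 3 in the order of comparisons above. The shares of all kept probes called were 39.6%, 47.9%, 27.3%, 28.6%, 44.4%, 46.8% and 21.5% in turn. Deviations of arrays with the same number correlated at -0.27 to 0.38 (median -0.02). Those of arrays with different numbers correlated at -0.28 to 0.32 (median 0.01). No pairing by number was seen, which so few arrays per group cannot exclude. Dim probes near background, such as Dpp4, limit small folds.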

Other observations

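Other cell classes of the muscle were measured beside the markers. Of all kept probes, 42.9% were called for CDTX in SCI mice and 48.9% in sham mice. Of 4 measured of 8 satellite cell genes (Pax7, Myf5 and Calcr were detected on 0 of 15 arrays), 0 rose and 1 fell with CDTX in SCI mice and 2 rose and 2 fell in sham mice. Myod1, the master regulator of the myogenic lineage, rose by 2.24 with CDTX in sham mice (adjusted p = 3.2e-07), was higher in SCI+Saline than in Sham+Saline by 2.62 (adjusted p = 1.7e-07), and had a lower CDTX effect in SCI than in sham mice by a difference of -2.69 (adjusted p = 3.3e-05). Surgery and slide cannot be told apart in the comparison of the saline groups. Of 6 measured of 8 Schwann cell genes, 1 rose with CDTX in SCI mice and 1 fell in sham mice.

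Of 6 measured of 10 neutrophil genes, 2 rose with CDTX after each surgery, and their summed intensity varied widely inside the saline groups, from 2044 to 13246 in SCI+Saline and from 129 to 11546 in Sham+Saline. The shares of all kept probes called with CDTX were 42.9% in SCI mice and 48.9% in sham mice. Of 2 measured of 8 B lymphocyte genes, Cd79b, a chain of the B cell receptor, rose with CDTX in SCI mice by 1.48 (adjusted p = 0.008). Scx, a transcription factor of tendon cells and their progenitors, was higher in SCI+Saline than in Sham+Saline by 3.03 (adjusted p = 1e-10) and in SCI+CDTX than in Sham+CDTX by 2.56 (adjusted p = 1.1e-08), comparisons in which surgery and slide cannot be told apart.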
